A study of Mus musculus with 6 samples.

Results

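Interferon response and signalling genes were followed in tracheal mesenchyme before and after airway injury. The group holds 44 genes named for this purpose, of which 42 had a probe set assigned to that gene alone and were measured, among 18193 genes in all. Isg15 (its probe set also carries another gene's symbol) and Ifi44 are not analysed here. Where a gene had several probe sets the one brightest on average was used, a choice that does not depend on the difference between the groups.

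RNA came from adult male C57Bl/6 mice. The 3 control samples were normal tracheal mesenchyme, and the 3 samples at 48 h post injury (hpi) came from mice that had breathed 500 ppm sulfur dioxide (SO2) in air for 4 h, an exposure that strips luminal cells from the airway lining. Each sample pooled the tracheas of 4 mice, and the mesenchyme was all that remained once dispase had loosened the epithelium and it had been peeled away. The study describes depletion of leukocytes for the epithelial fraction and not for this tissue.

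Interferons are secreted cytokines that alarm cells to infection and damage. Type I interferons signal through the receptor chains Ifnar1 and Ifnar2 to a complex that holds STAT2 and IRF9 and binds interferon-stimulated response elements, whereas interferon gamma signals through Ifngr1 and Ifngr2 and acts on genes with gamma-activated sequences. The genes switched on include RNA sensors, enzymes that degrade or trap viral RNA, GTPases that attack pathogen compartments, and the machinery that loads peptides on MHC class I. Laboratory C57BL/6 mice carry a defective Mx1 gene.

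Promoters of Oas1a, Bst2, Ifit1 and Oas3 show what such response elements look like in genes with different changes here, and those of Xaf1 and Tap1 hold no match. Each is the run of 250 bases before the RefSeq transcription start in GRCm38.p6, 5′ to 3′ on the gene's own strand. Capitals mark exact matches, on either strand, to the response element core, taken as GAAA, any 2 bases, then GAAA. Neighbouring matches may overlap.

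Oas1a, chr5:120907526-120907775, minus strand: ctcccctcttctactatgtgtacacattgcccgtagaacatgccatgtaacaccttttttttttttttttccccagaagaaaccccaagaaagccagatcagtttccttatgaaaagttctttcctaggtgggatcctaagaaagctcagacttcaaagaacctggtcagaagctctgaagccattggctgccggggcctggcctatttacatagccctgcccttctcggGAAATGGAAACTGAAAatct
Bst2, chr8:71537473-71537722, minus strand: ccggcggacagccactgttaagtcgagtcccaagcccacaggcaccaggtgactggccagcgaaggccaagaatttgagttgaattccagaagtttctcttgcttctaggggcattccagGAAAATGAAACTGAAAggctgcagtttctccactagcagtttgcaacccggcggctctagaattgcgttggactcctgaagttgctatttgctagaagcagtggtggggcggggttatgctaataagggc
Ifit1, chr19:34640639-34640888, plus strand: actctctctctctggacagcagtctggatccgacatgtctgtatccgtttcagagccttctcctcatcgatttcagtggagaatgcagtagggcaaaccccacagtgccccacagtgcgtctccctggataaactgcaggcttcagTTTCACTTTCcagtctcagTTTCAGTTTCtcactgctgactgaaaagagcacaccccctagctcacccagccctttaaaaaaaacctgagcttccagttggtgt
Oas3, chr5:120777660-120777909, minus strand: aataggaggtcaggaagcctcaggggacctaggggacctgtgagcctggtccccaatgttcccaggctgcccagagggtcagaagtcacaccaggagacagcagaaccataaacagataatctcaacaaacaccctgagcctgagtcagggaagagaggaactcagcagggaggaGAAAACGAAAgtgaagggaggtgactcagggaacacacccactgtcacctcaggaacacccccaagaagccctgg
Xaf1, chr11:72301379-72301628, plus strand: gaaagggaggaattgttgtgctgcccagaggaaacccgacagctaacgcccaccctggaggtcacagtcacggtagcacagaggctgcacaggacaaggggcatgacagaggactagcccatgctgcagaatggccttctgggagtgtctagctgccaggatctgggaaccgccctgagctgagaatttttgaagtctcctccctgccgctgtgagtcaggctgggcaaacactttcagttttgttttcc
Tap1, chr17:34187306-34187555, plus strand: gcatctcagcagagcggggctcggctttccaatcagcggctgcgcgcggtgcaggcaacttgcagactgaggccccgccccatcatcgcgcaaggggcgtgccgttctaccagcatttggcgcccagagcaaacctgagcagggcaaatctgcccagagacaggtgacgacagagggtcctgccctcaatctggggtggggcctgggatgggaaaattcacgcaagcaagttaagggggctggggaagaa

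The values are microarray expression levels on the log2 scale, with 1 array per sample. A level can be compared between samples for the same gene but not between genes, and the number of arrays limits the precision. Differences are log2 fold changes, 48 hpi minus control, with the standard error (SE) of limma's linear model, and "rose" is used for an adjusted p (Benjamini-Hochberg over all probe sets) below 0.05. Samples carry replicate numbers in both groups, and same-numbered samples deviated together, most clearly those numbered 1. A second fit, which blocks on the number, was therefore added. It is given beside the first where it changed a call of an interferon gene or a count of calls. The samples numbered 1 stood apart: they correlated with the other samples of their group at 0.987 to 0.990 over probe sets, against 0.993 for control replicates 2 and 3 and 0.994 for 48 hpi replicates 2 and 3.

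At 48 hpi the interferon genes lay mostly above control, by small amounts. Of the 42 genes, 36 had a log2 fold change above 0, as did 46.8% of all genes, and the median was 0.36 against -0.015 over all genes. Past the threshold, 4 rose (Zbp1, Bst2, Oas1a and Xaf1), where 4.97% of all genes did, and 0 fell, where 1.24% did. At an unadjusted p under 0.05, limma put 25 higher and 0 lower, against 14.6% and 9.29% of all genes. With the replicate number as a block, 17 rose (8.77% of all genes) and 0 fell (4.64%), and the 4 genes above were among the 17. The 3 samples at 48 hpi all lay above the 3 controls in 22 genes, compared with 17.2% of all genes, and all below in 0, compared with 13.1%.

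**Figure D1:**
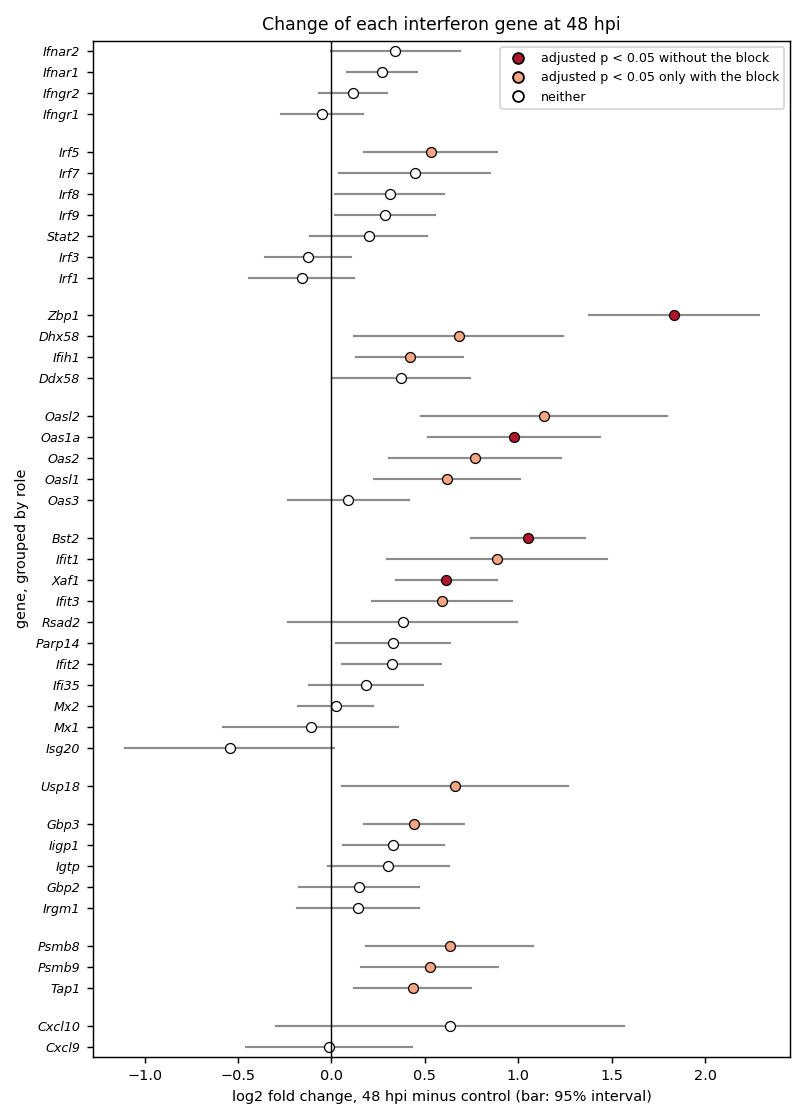
Log2 fold changes (48 hpi minus control, horizontal axis) of the 42 interferon genes measured, grouped by role (vertical axis), with 95% intervals of the fit without the block as bars. Dark red points passed at adjusted p 0.05 without the replicate block and light points only with it. Zbp1 lies farthest right at 1.83 and Isg20 farthest left at -0.55.

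Which genes passed depended on single samples. Zbp1 and Bst2 passed whichever sample was left out. Omitting control replicate 1 left 3 genes past the threshold (3.32% of all genes), omitting control replicate 2 left 2 (2.7%) and omitting control replicate 3 left 2 (2.22%). Omitting 48 hpi replicate 1 left 2 (2.46%), while 6 passed (3.56%) on omitting 48 hpi replicate 2 and 2 (1.92%) on omitting 48 hpi replicate 3. Without both samples numbered 1, 2 passed (2.27%), Zbp1 and Cxcl10.

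The nucleic acid sensors held the largest rise. Zbp1, which binds left-handed nucleic acid and can start necroptosis, was 5.39, 4.96 and 5.04 in control replicates 1 to 3 and 7.07, 6.58 and 7.24 in 48 hpi replicates 1 to 3. The groups were apart by over 1 unit. This is a 3.56-fold rise (log2 fold change 1.83 ± 0.19, SE, adjusted p = 0.00384, and 0.000559 with the block), and it passed in all 6 fits that left out 1 sample (adjusted p at most 0.0253). A second probe set for Zbp1 differed by 0.33 ± 0.12 (adjusted p = 0.175), and the mean of both by 1.08 (adjusted p = 0.00507).

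The 3 RIG-I-like receptors, helicases that detect viral RNA, had smaller differences. Dhx58 was 5.92, 5.34 and 6.09 in controls and 6.65, 6.06 and 6.68 at 48 hpi, so that 48 hpi replicate 2 fell inside the control range. Its differences within the same-numbered pairs were close, at 0.73, 0.72 and 0.59, and it rose with the block only (0.68 ± 0.086, adjusted p = 0.00621, against 0.181 without). Ifih1, the sensor MDA5, was 7.46, 7.25 and 7.41 in controls and 7.88, 7.57 and 7.92 at 48 hpi, with no overlap, and rose with the block (0.42 ± 0.088, adjusted p = 0.0299, against 0.117). Ddx58, the sensor RIG-I, was 7.46, 7.37 and 7.61 in controls and 7.73, 7.63 and 8.19 at 48 hpi, and passed in neither fit (0.37 ± 0.16, adjusted p = 0.262, and 0.0621 with the block). The other 2 probe sets of Ddx58 lay at -0.081 ± 0.13 and -0.11 ± 0.092, and the mean of its 3 probe sets at 0.060 (adjusted p = 0.777). With the probe sets used, all 4 sensors were higher at 48 hpi in each of the 3 pairs, as were 26.6% of all genes. Probe sets also differed in sign in Dhx58, Psmb8, Tap1 and Cxcl9, where those not used were all dim, with a mean no higher than 4.74.

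Among the 5 oligoadenylate synthetase genes, whose active members make the small messenger that turns on RNase L, 1 rose without the block and 4 with it (4.97% and 8.77% of all genes). Oas1a was 7.50, 7.12 and 7.29 in controls and 8.47, 7.85 and 8.53 at 48 hpi, a 1.97-fold rise (0.98 ± 0.20, adjusted p = 0.0401, and 0.00448 with the block). The groups were apart, 48 hpi replicate 2 lying nearest to the controls. Of the 6 fits that left out a sample, the call held only in the one without that sample (adjusted p = 0.0117, and up to 0.152 in the others).

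Oasl2, a synthetase-like protein, was 6.21, 5.87 and 6.77 in controls and 7.47, 6.96 and 7.83 at 48 hpi. Its spread within groups kept the difference of 1.14 ± 0.28 from passing without the block (adjusted p = 0.0767). Within pairs it differed by 1.26, 1.09 and 1.06, and it rose with the block (SE 0.089, adjusted p = 0.000853). Oas2 was 6.41, 6.35 and 6.83 in controls and 7.09, 7.12 and 7.68 at 48 hpi and rose with the block (0.77 ± 0.087, adjusted p = 0.00399, against 0.0827). Oasl1, another synthetase-like protein, was 4.81, 4.36 and 4.47 in controls and 5.25, 4.88 and 5.36 at 48 hpi and rose with the block too (0.62 ± 0.11, adjusted p = 0.0193, against 0.0946). The mean of its controls lay under 4.74, the limit for dim probe sets. Oas3 was unlike these 4, with overlapping groups of 5.84, 5.44 and 5.53 in controls and 5.54, 5.66 and 5.87 at 48 hpi (0.091 ± 0.14, 95% interval -0.23 to 0.42).

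Antiviral effectors moved unevenly: of 11 measured, 2 rose without the block and 4 with it (4.97% and 8.77% of all genes), and their median was 0.33. Bst2, or tetherin, which holds budding virions at the cell surface, was 6.86, 6.95 and 6.92 in controls and 8.10, 7.69 and 8.11 at 48 hpi. Its controls lay close together, and each sample at 48 hpi was well above them. The rise was 2.07-fold (1.05 ± 0.13, adjusted p = 0.00740, and 0.00411 with the block) and passed without any 1 sample (adjusted p at most 0.0421), but not without both samples numbered 1 (0.0521). Xaf1, an interferon-induced antagonist of the caspase inhibitor XIAP, was 8.40, 8.27 and 8.42 in controls and 9.08, 8.76 and 9.09 at 48 hpi, and rose 1.53-fold (0.62 ± 0.11, adjusted p = 0.0319, and 0.00969 with the block). Among the fits that left out 1 sample, the call of Xaf1 held only without 48 hpi replicate 2 (adjusted p up to 0.134 in the others). The call was also lost with the mean of its 2 probe sets (0.35, adjusted p = 0.111), of which the one not used was dim, with a mean of 3.87.

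The IFIT genes encode proteins that bind viral RNA. Ifit1 was 7.46, 6.89 and 7.40 in controls and 8.30, 7.61 and 8.49 at 48 hpi. Ifit3 was 7.21, 6.95 and 7.21 in controls and 7.89, 7.37 and 7.87 at 48 hpi. In both genes control replicate 2 was the lowest control and 48 hpi replicate 2 the lowest injured sample. Over all 6 samples both rose with the block only: Ifit1 by 0.89 ± 0.10 (adjusted p = 0.00415, against 0.108) and Ifit3 by 0.59 ± 0.094 (adjusted p = 0.0136, against 0.0973). With 48 hpi replicate 2 left out, both passed in limma without the block (adjusted p = 0.0403 for Ifit1 and 0.0343 for Ifit3). Ifit2 was 6.95, 7.03 and 6.95 in controls and 7.51, 7.27 and 7.13 at 48 hpi, apart but past the threshold in neither fit (0.32 ± 0.11, adjusted p = 0.179, and 0.100 with the block).

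The remaining effectors passed in neither fit. Rsad2, or viperin, was spread over 7.82, 7.19 and 7.67 in controls and 8.25, 7.39 and 8.18 at 48 hpi (0.38 ± 0.26, adjusted p = 0.481, and 0.0517 with the block). Parp14, an ADP-ribosyltransferase, had a difference of 0.33 ± 0.13, and Ifi35 one of 0.18 ± 0.13. The Mx GTPases lay near 0, Mx2 at 0.024 ± 0.085 and Mx1 at -0.11 ± 0.20, the sign of Mx1 turning without control replicate 3 and without 48 hpi replicate 2, and that of Mx2 without 48 hpi replicate 3. Isg20, an RNA exonuclease, had the most negative estimate of the 42 genes. It was 9.34, 9.22 and 10.03 in controls and 9.32, 8.84 and 8.79 at 48 hpi, and of its pair differences of -0.020, -0.38 and -1.24 the third was the largest (-0.55 ± 0.24, adjusted p = 0.276). Usp18, the protease that removes ISG15 from proteins and damps the type I receptor, was 6.87, 6.25 and 6.53 in controls and 7.49, 6.65 and 7.49 at 48 hpi. The groups overlapped through replicate 2, and Usp18 rose with the block only (0.66 ± 0.12, adjusted p = 0.0206, against 0.224).

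**Figure D2:**
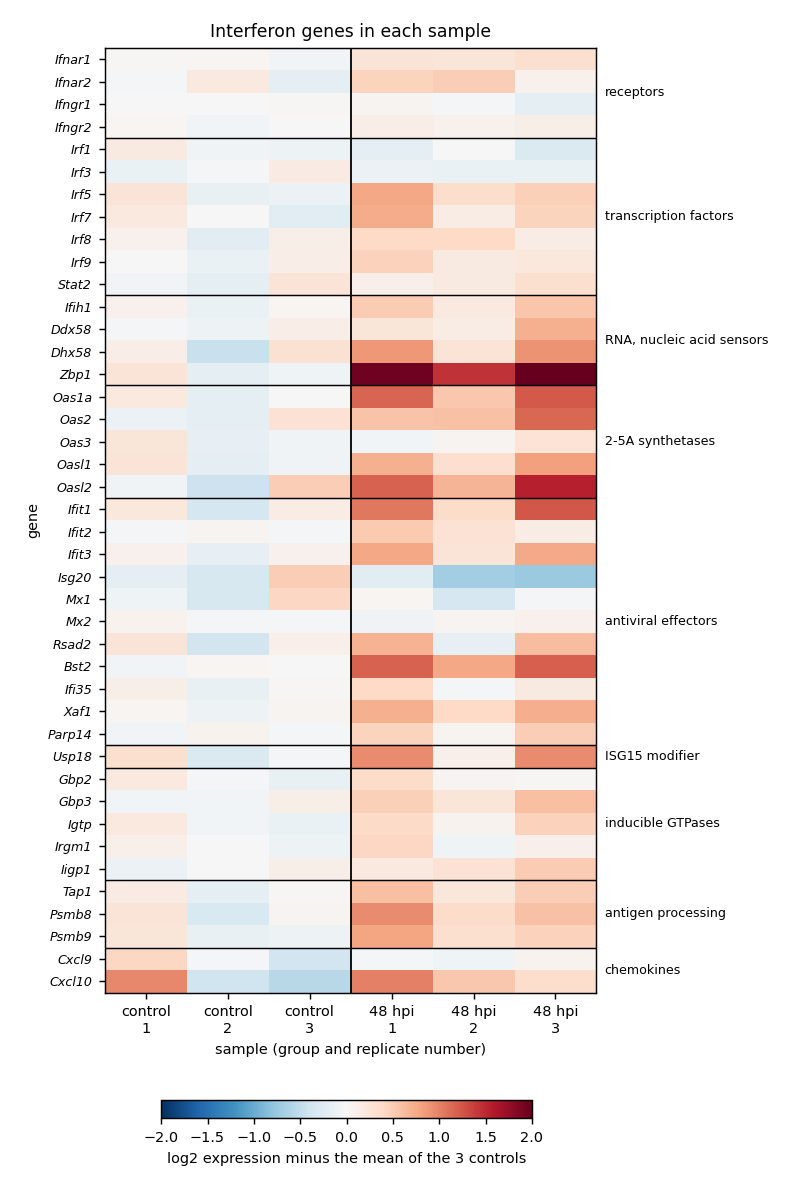
Expression of the 42 interferon genes (vertical axis, grouped by role) in each of the 6 samples (horizontal axis), coloured by the log2 difference from the mean of the 3 controls. The 48 hpi columns are mostly red, palest in replicate 2, with Zbp1 the darkest row and Isg20 blue in 48 hpi replicates 2 and 3.

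Replicate 2 was often the low sample in both groups. Among the 42 genes, control replicate 2 was the lowest control in 27 (37.1% of all genes) and 48 hpi replicate 2 the lowest injured sample in 29 (40.4% of all genes). Both held in 21 genes, against 18.2% of all genes. Median differences within pairs 1, 2 and 3 were 0.44, 0.30 and 0.49. Of the 42 genes, 32 were higher at 48 hpi in all 3 pairs, where 26.6% of all genes were, and 1, Isg20, was lower in all 3, where 27.3% were. Of the 17 genes that rose with the block, 15 had groups that did not overlap (17.2% of all genes lay wholly above), the exceptions being Dhx58 and Usp18. These 17 were picked by a test on the same values, so this describes them and is not further support.

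**Figure D3:**
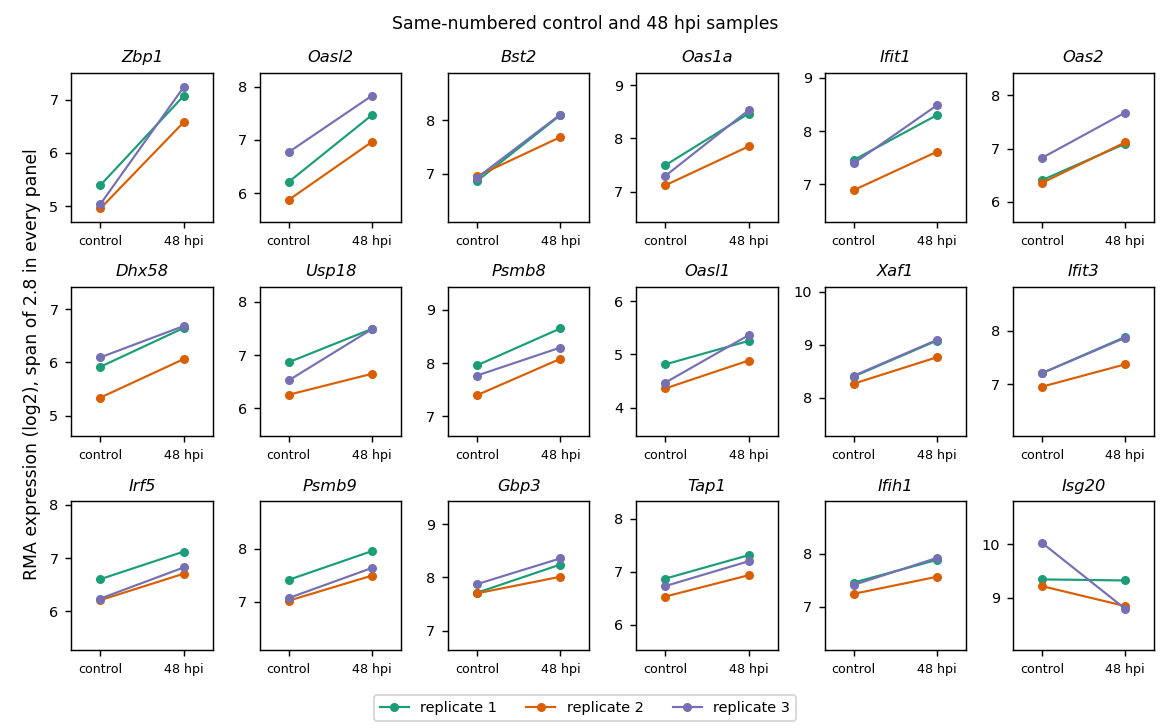
Expression (log2, vertical axis, with the same span in every panel) in control and 48 hpi samples (horizontal axis) for the 17 interferon genes that rose with the replicate block and for Isg20, with a line joining samples of the same replicate number. The lines of the 17 genes, picked by the blocked fit on these same values, all slope upward, whereas those of Isg20 are level or slope downward.

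Transcription factors of the pathway had small differences, and 1 of 7 rose with the block, where 8.77% of all genes did. Irf5, which acts downstream of Toll-like receptors in myeloid cells, was 6.61, 6.21 and 6.24 in controls and 7.12, 6.71 and 6.82 at 48 hpi, and was the 1 of 7 factors to rise, with the block only (0.53 ± 0.084, adjusted p = 0.0129, against 0.109). A second Irf5 probe set differed by 0.16 ± 0.15 (adjusted p = 0.613). Irf7, the factor that amplifies type I interferon production, was 7.08, 6.90 and 6.68 in controls and 7.63, 7.04 and 7.32 at 48 hpi, with overlap (0.45 ± 0.17, adjusted p = 0.218, and 0.0580 with the block).

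For Irf8, a factor of monocyte and dendritic cell lineages, controls of 7.23, 6.93 and 7.26 lay just under 48 hpi values of 7.54, 7.53 and 7.28 (0.31 ± 0.12, adjusted p = 0.234). Irf9, the DNA-binding part of the type I complex, was 7.45, 7.32 and 7.58 in controls and 7.91, 7.63 and 7.67 at 48 hpi (0.28 ± 0.11, adjusted p = 0.235), and its partner Stat2 was 5.47, 5.31 and 5.77 in controls and 5.62, 5.69 and 5.84 at 48 hpi (0.20 ± 0.13, adjusted p = 0.467). Irf8 and Irf9 lay wholly above the controls at 48 hpi, as did 17.2% of all genes, whereas Stat2 overlapped. None of the 3 passed with the block. Irf1, which interferon gamma induces, was 8.48, 8.23 and 8.20 in controls and 8.10, 8.32 and 8.01 at 48 hpi. Irf3, the factor activated downstream of nucleic acid sensors, was 8.88, 8.97 and 9.16 in controls and 8.89, 8.87 and 8.88 at 48 hpi. Both lay slightly below 0, Irf1 at -0.16 ± 0.12 (95% interval -0.44 to 0.12) and Irf3 at -0.13 ± 0.097 (-0.35 to 0.10). The Irf3 probe set used can hybridize to other transcripts, but its other 3 probe sets also lay between -0.22 and -0.071.

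Receptor genes passed in neither fit. Ifnar1 was 7.14, 7.14 and 7.05 in controls and 7.37, 7.35 and 7.43 at 48 hpi, a narrow gap without overlap (0.27 ± 0.080, 95% interval 0.086 to 0.46, adjusted p = 0.118). Ifnar2 was 8.62, 8.85 and 8.47 in controls and 9.09, 9.15 and 8.74 at 48 hpi, with overlap (0.34 ± 0.15, -0.0022 to 0.69, adjusted p = 0.266). Both chains of the type I receptor were higher in all 3 pairs, as were 26.6% of all genes, with adjusted p = 0.0970 and 0.0555 under the block. Ifngr1 was 8.42, 8.43 and 8.45 in controls and 8.49, 8.40 and 8.24 at 48 hpi (-0.051 ± 0.092, -0.27 to 0.17), its sign turning without 48 hpi replicate 3. Ifngr2 was 6.68, 6.60 and 6.65 in controls and 6.78, 6.72 and 6.77 at 48 hpi (0.11 ± 0.078, -0.068 to 0.30), but a second probe set differed by 0.52 ± 0.14 (adjusted p = 0.0944), so that the 2 disagree on the size.

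Of the interferon-inducible GTPases, which guard against intracellular pathogens, 0 of 5 rose without the block and 1 with it (4.97% and 8.77% of all genes). Gbp3, a guanylate-binding protein, was 7.71, 7.70 and 7.87 in controls and 8.24, 8.01 and 8.36 at 48 hpi and rose with the block (0.44 ± 0.090, adjusted p = 0.0276, against 0.0858). Iigp1 was 9.11, 9.24 and 9.34 in controls and 9.42, 9.52 and 9.74 at 48 hpi, just apart, and passed in neither fit (0.33 ± 0.12, adjusted p = 0.177, and 0.0528 with the block). Gbp2, Igtp and Irgm1 had differences of 0.15 ± 0.14, 0.30 ± 0.14 and 0.14 ± 0.14 and overlapping groups. At an unadjusted p under 0.05, limma put 2 of the 5 GTPases higher, against 14.6% of all genes.

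The 3 genes of peptide processing for MHC class I all rose with the block but not without it (8.77% and 4.97% of all genes rose). Psmb8, a catalytic subunit of the immunoproteasome, was 7.96, 7.40 and 7.77 in controls and 8.65, 8.08 and 8.29 at 48 hpi (0.63 ± 0.088 with the block, adjusted p = 0.00833, against 0.125). Its partner subunit Psmb9 was 7.41, 7.02 and 7.07 in controls and 7.95, 7.49 and 7.64 at 48 hpi (0.53 ± 0.084, adjusted p = 0.0135, against 0.122). Tap1, a chain of the peptide transporter, was 6.87, 6.53 and 6.73 in controls and 7.31, 6.94 and 7.20 at 48 hpi (0.44 ± 0.083, adjusted p = 0.0228, against 0.132). All 3 lay wholly above the controls at 48 hpi, as did 17.2% of all genes, and the pair differences of Tap1 were 0.44, 0.40 and 0.47. Tap1 and Psmb9 are transcribed in opposite directions from 1 stretch of DNA: their promoter windows share 275 of 300 bases, and the Tap1 side is printed above. At an unadjusted p under 0.05, limma put 3 of the 3 higher, against 14.6% of all genes.

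The interferon-induced chemokines Cxcl9 and Cxcl10, both ligands of the receptor Cxcr3, did not pass in either fit. Cxcl10 was 6.82, 5.45 and 5.29 in controls and 6.86, 6.39 and 6.21 at 48 hpi. Control replicate 1 was as high as the injured samples, and pair differences were 0.038, 0.95 and 0.92 (0.63 ± 0.40, adjusted p = 0.441, and 0.0722 with the block). Cxcl10 passed without control replicate 1 (1.12, adjusted p = 0.0456) and without both samples numbered 1 (0.93, adjusted p = 0.0284). Cxcl9 was dim, at 5.11, 4.68 and 4.32 in controls and 4.69, 4.62 and 4.78 at 48 hpi (-0.012 ± 0.19), and was the 1 interferon gene whose mean over all samples lay under the dim limit. Its sign turned in several alternatives, among them the centring of each array on its median (0.019).

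Genes for the interferons themselves did not pass the test. Of 10 measured ligand genes 7 had means under the dim limit. Ifnb1 was 4.02, 3.91 and 3.79 in controls and 3.81, 3.70 and 3.99 at 48 hpi (-0.071 ± 0.11), and Ifng was 3.10, 2.89 and 2.92 in controls and 2.86, 2.91 and 2.87 at 48 hpi (-0.087 ± 0.090). Over the 10 ligands, 0 rose or fell in limma with or without the block, 0 had an unadjusted p under 0.05, and the highest upper limit of a 95% interval was 0.26. Dim probe sets understate changes, so a small change in ligand RNA would not be detectable here.

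Other genes of the pathway, 100 measured of 124 listed, gave 16 that rose and 0 that fell (4.97% and 1.24% of all genes), or 31 and 0 with the block (8.77% and 4.64%). At an unadjusted p under 0.05, limma put 37 higher and 2 lower, against 14.6% and 9.29% of all genes. Of 59 further interferon-stimulated genes 13 rose, or 24 with the block, with a median of 0.32. The largest changes included 3 of the 4 measured HIN-200 family genes, Ifi204 (2.10 ± 0.36, adjusted p = 0.0238), Ifi209 (2.02 ± 0.35, adjusted p = 0.0265) and Ifi207 (1.09 ± 0.20, adjusted p = 0.0287), close relatives whose probes may share signal, whereas the fourth, Ifi203, had a difference of -0.097 ± 0.10 (adjusted p = 0.659). The control means of Ifi204 and Ifi207 were under the dim limit. Others were Mlkl, the effector of necroptosis (1.37 ± 0.12), Epsti1 (1.27 ± 0.13), Rtp4 (1.01 ± 0.20), Slfn2 (0.96 ± 0.18), the thiol reductase Ifi30 (0.95 ± 0.080), Trim30a (0.94 ± 0.20) and Ifi27l2a (0.88 ± 0.15).

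Mlkl, which can act downstream of Zbp1, had a mean of 4.88 ± 0.13 in the 3 controls and 6.25 ± 0.17 in the 3 samples at 48 hpi (SD, adjusted p = 0.00174 in limma) and passed without any 1 sample. Among 20 other signalling genes 3 rose, or 4 with the block (4.97% and 8.77% of all genes). The 3 were the DNA-sensing adaptor Sting1 (0.82 ± 0.089, adjusted p = 0.00446), its upstream enzyme Cgas (0.56 ± 0.11, adjusted p = 0.0353) and the receptor chain Il10rb (0.47 ± 0.097, adjusted p = 0.0446), all 3 named after their values were seen. Of 11 other class I genes 0 rose without the block and 3 with it, and 3 were higher at an unadjusted p under 0.05 in limma (14.6% of all genes). The heavy chain gene H2-K1 (-0.039 ± 0.21) and B2m (-0.023 ± 0.091), also named after their values were seen, lay near 0. Of the pathway list, 7 rose (3.32% of all genes) on omitting control replicate 1, 5 (2.7%) on omitting control replicate 2 and 6 (2.22%) on omitting control replicate 3. In the 48 hpi group, 5 rose (2.46%) on omitting replicate 1, 14 (3.56%) on omitting replicate 2 and 5 (1.92%) on omitting replicate 3.

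**Figure D4:**
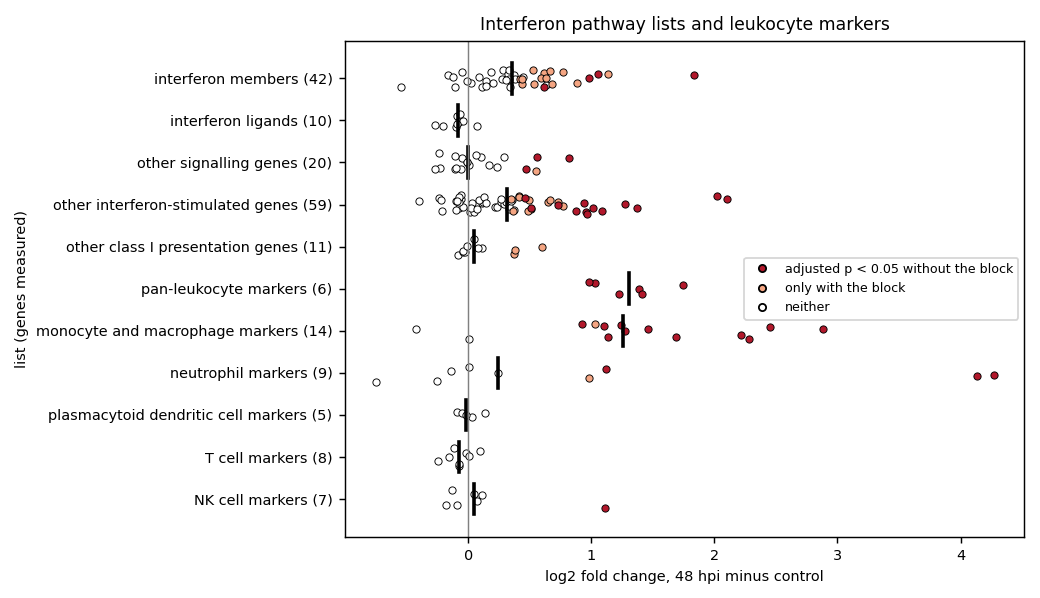
Log2 fold changes (48 hpi minus control, horizontal axis) of the 42 interferon genes, 4 further lists of the pathway and 6 lists of leukocyte markers (vertical axis, genes measured in brackets), 1 point per gene, coloured by call as in the key, with a bar at each median. Medians are 0.36 for the interferon genes, -0.081 for the ligands, 1.31 for pan-leukocyte markers and -0.073 for T cell markers.

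Some lists of leukocyte markers moved with the interferon genes. Of all genes, 4.97% rose and 1.24% fell (8.77% and 4.64% with the block), and at an unadjusted p under 0.05 limma put 14.6% higher and 9.29% lower. All 6 pan-leukocyte markers, Ptprc (CD45) among them, rose. Their mean log2 level was 7.77 to 8.40 in controls and 9.13 to 9.55 at 48 hpi, lowest in replicate 2 of both groups. Mean levels of the monocyte and macrophage, neutrophil, T cell, NK cell and B cell lists were also lowest in replicate 2 of both groups. Of 14 monocyte and macrophage markers 11 rose (12 with the block), with mean levels of 7.69 to 7.87 and 8.97 to 9.35. The neutrophil markers were mixed: of 9, 3 rose, or 4 with the block (5.95 to 6.56 and 7.17 to 7.61), and the median was 0.24. S100a8 and S100a9 differed most (4.27 and 4.13), whereas Ltf (-0.75) and Ngp (-0.26) had all samples at 48 hpi below all controls, as did 13.1% of all genes. Of 7 endothelial markers 3 rose, or 4 with the block, with a median of 0.48. More cells of a type and more RNA per cell cannot be told apart in such bulk tissue, and the part of leukocytes or endothelium in the result for the interferon genes was not tested. Of 5 markers of plasmacytoid dendritic cells, a main source of type I interferon, 0 rose or fell (also 0 at an unadjusted p under 0.05 in limma), at mean levels of 5.47 to 5.71 and 5.53 to 5.59. Of 8 T cell markers (median -0.073) and 5 B cell markers (-0.041) 0 rose or fell in either fit (0 at an unadjusted p under 0.05 in limma), and of 6 conventional dendritic cell markers (-0.10) 0 rose without the block (1 at an unadjusted p under 0.05 in limma) and 1 with it. Of 7 NK cell markers Klrd1 rose (1.11 ± 0.19, adjusted p = 0.0230), while 4, Ncr1 and Gzma among them, had means under the dim limit.

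Markers of mesenchyme were present: all 8 fibroblast markers (mean log2 level 12.27 to 12.49 in controls and 12.30 to 12.49 at 48 hpi), all 8 cartilage markers and all 6 smooth muscle markers lay above the dim limit. The 8 cartilage markers were lower at 48 hpi in all 3 pairs, where 27.3% of all genes were (median -0.56, mean levels 11.61 to 11.88 in controls and 11.07 to 11.39 at 48 hpi). Of these markers 2 fell, or 5 with the block (1.24% and 4.64% of all genes). Of the fibroblast markers 1 fell, and with the block 1 fell and 1 rose. All 10 epithelial markers were also above the dim limit. Their mean levels were 7.26 to 8.10 in controls, lowest in replicate 2, and 7.05 to 8.15 at 48 hpi, lowest in replicate 3. In this list 1 gene, Scgb1a1, fell with the block only (-2.57 ± 0.42, adjusted p = 0.0146, against 0.146). The part of cartilage and epithelium in the result for the interferon genes was not tested.

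RefSeq promoter windows were found for 34 of the 42 genes. Each window of 300 bases adds the first 50 of the transcript to the 250 before it, and a gene with several windows was counted if any of them matched. Windows were not matched for Zbp1, Dhx58, Oas2, Mx1, Mx2, Usp18, Iigp1 and Parp14. The response element core, on either strand, was present in 14 of the 34 genes (41.2%), compared with 3.99% of the 27025 genes in the promoter table. The gamma-activated sequence TTCNNNGAA, which reads the same on both strands, was present in 11 (32.4%), compared with 9.55%. Both were present in Oas1a, Bst2 and Igtp, and in Bst2 the 2 kinds of match overlap. As the genes were listed for their known response to interferon, these shares describe the list.

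The 14 genes with the core had a median log2 fold change of 0.40, from 0.091 for Oas3 to 1.05 for Bst2. Of them 2 rose without the block and 6 with it, where 4.97% and 8.77% of all genes did. The 20 genes without an exact match had a median of 0.32, from -0.55 for Isg20 to 1.14 for Oasl2, and 1 rose without the block and 7 with it. Sites that differ from the core by a base or lie outside the windows were not searched, so these 20 may still hold response elements. In the promoters printed above, Oas1a and Bst2 each hold a pair of overlapping matches, beginning 20 and 14 bases before the start in Oas1a and 130 and 124 bases before it in Bst2, and Ifit1 holds a pair that begin at 104 and 85 bases. Oas3, with a difference of 0.091, holds 1 that begins at 75 bases. Xaf1 and Tap1, with changes of 0.62 and 0.44, hold none in these windows. Among other genes that rose, 5.55% of 703 with a promoter held the core.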

How the data were processed

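The authors amplified RNA of each of 6 pools of 4 mice, hybridized it to Affymetrix mouse arrays and normalized by robust multi-array analysis (RMA). The deposited values are RMA expression on the log2 scale, 1 per probe set. Tools named in the submitters' processing notes are Partek 6.5 and Affymetrix Expression Console 1.1. RMA removes a change shared by most genes and compresses folds of dim genes.

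Of 45101 probe sets, 64 Affymetrix controls were left out and 45037 tested. The platform annotation gave 1 symbol to 34945, several to 932 and none to 9160. Of the 34945, 34741 were matched through Entrez identifiers to RefSeq (GRCm38.p6), giving 18193 genes. Of the 42 interferon genes, 19 had several probe sets, and 3 used a kind of probe set that can match related transcripts (x_at or s_at).

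The test was limma 3.58.1 in R 4.3.3 (lmFit and eBayes, two-sided, with the group as factor), with Benjamini-Hochberg adjustment over the 45037 probe sets at 0.05. All adjusted p-values are from limma. Residual degrees of freedom were 4, with 3.21 added by the shared spread, and 2 with the block. Samples are pools, so p-values measure the spread between pools. A probe set with a mean no higher than 4.74, percentile 40 of all values, counted as dim. The fit was checked on simulated data.

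Both groups carry replicate numbers. With group means removed, same-numbered samples deviated together (correlations over probe sets 0.62, 0.36 and 0.34). Control replicate 3 also correlated with injured replicate 2 at 0.18, and control replicate 2 with injured replicate 3 at 0.11. Correlations between a sample numbered 1 and one numbered otherwise ran from -0.43 to -0.36. Removing group means makes the deviations in a group sum to 0, so these negative values largely follow from the 0.62 and are not further support. The 0.62 sets number 1 apart, and the values separate the pairs numbered 2 and 3 only weakly. The numbers were taken to pair the samples. This pairing is read from the values, as no label states what a number marks. Alternatives were the block, other probe set choices, filters, scalings and variance models, and fits without single samples.

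Genes were named by rule: values in every sample for members past the threshold in either fit, receptors, factors and up to 8 further members, and from other pathway genes the 10 largest changes past the threshold, Ifnb1 and Ifng. The members and lists were chosen with earlier results of these data known. Promoter windows were taken from RefSeq.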

Additional observations from a re-analysis of the deposited data

How the results depend on the processing

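The number of interferon genes that rose (4) was 4 to 5 with another choice of probe set, adjustment over 1 probe set per gene, dim probe sets left out, arrays centred on their median, a trended or robust variance and array weights, and 0 fell in any alternative. With those choices 4.92% to 7.09% of the genes tested rose and 0.846% to 1.98% fell. With the mean of the probe sets of a gene, Gbp3 and Oasl2 rose and Xaf1 did not. The number was 17 with the replicate number as a block (8.77% of all genes rose), 2 without both samples numbered 1 (2.27%) and 2 to 6 with 1 sample left out (1.92% to 3.56%). It was 0 with a 1-way analysis of variance per probe set after Benjamini-Hochberg adjustment, which called only 0.225% of all genes higher. At its unadjusted p under 0.05 that analysis put 17 higher, against 13.2% of all genes. The 16 other pathway genes that rose became 31 with the replicate block, 5 without both samples numbered 1 and 5 to 14 with 1 sample left out, beside the same shares of all genes. That analysis of variance left 1 after adjustment (0.225% of all genes). At its unadjusted p under 0.05 it put 28 higher and 3 lower (13.2% and 8.03% of all genes). With the probe set of lowest p, 1 other pathway gene fell (1.67% of all genes). The study's own analysis of variance was two-way over 2 tissues and was not run here. The replicate block changed no call of an interferon gene other than those given above. Of 755 alternative values for single interferon genes 11 reversed, in 4 genes. With 1 sample left out, Ifngr1 ranged from -0.11 to 0.018 and Mx2 from -0.0042 to 0.070, both turning without 48 hpi replicate 3. Mx1 ranged from -0.27 to 0.099, turning without control replicate 3 (0.099) and without 48 hpi replicate 2 (0.0022). Cxcl9 ranged from -0.20 to 0.19, turning without control replicate 1 (0.19) and without 48 hpi replicate 2 (0.027), and was 0.19 without both samples numbered 1, 0.041 with the mean of its probe sets, 0.094 with the probe set of lowest p, 0.019 with centred arrays and 0.038 with array weights. The cause was not tested.

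With 3 arrays a group, small changes lie within the error. Of the genes that did not pass without the block, 8 had 95% intervals reaching a log2 fold change of 1. Signal near background limits Cxcl9, the ligands and the control levels of Oasl1.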
